A study of Homo sapiens with 4 samples.

Results

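The N6-methyladenosine (m6A) machinery was represented by 10 genes: the methyltransferase core METTL3 and METTL14, the writer complex partners WTAP, VIRMA, ZC3H13, RBM15 and RBM15B, the demethylases ALKBH5 and FTO, and the reader YTHDF2. They are 10 of 19970 protein-coding genes placed on hg38. All rows of 2 peak lists that lay in these genes or within 20 kb on either side were taken, which gave 12 of 9829 PPARα peaks and 25 of 46021 PML/RARA peaks. The set was chosen by its place in 1 pathway and by the measured PPARα peak at RBM15, which is among the strongest of its list. The PPARα values at RBM15 are therefore a description, and the whole set was drawn up with results of these lists known.

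m6A is the commonest internal mark of messenger RNA. METTL3 carries out the methylation, METTL14 holds the RNA, and WTAP, VIRMA, ZC3H13 and the RBM15 proteins position the enzymes on the nucleus's transcripts. ALKBH5 and FTO remove the methyl group, and YTHDF2 binds marked RNA and leads it to decay. RBM15 is also known in blood cells as the partner of MKL1 in the fusion of acute megakaryoblastic leukemia, and METTL3 is known to support the growth of myeloid leukemia cells.

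The lists came from CUT&Tag, a method that cuts and tags DNA next to an antibody's target with a tethered transposase, in NB4, an acute promyelocytic leukemia line that carries the PML and RARA fusion. The study made a PPARα library, a PML/RARA library and, for either of them, an IgG library. All 4 libraries come from NB4. The labels call the antibody libraries treatment and the IgG libraries control and name no drug, dose or time. A single cell line and 1 library per antibody limit every value to these libraries, and no test between samples was possible. The fusion was not separated from unfused PML or RARA protein, since no source used here gives the epitope. Read depth behind the lists is unknown and the IgG libraries were not analysed here, so where no peak is listed, lack of binding cannot be told from lack of depth. Peaks within 1 kb of a gene end lay at 1 of 7 promyelocyte and granulocyte marker genes for PPARα (MPO) and at 4 of 7 for PML/RARA, where 32.3% and 57.8% of all protein-coding genes had such peaks. They lay at 0 of 12 markers of T cells, B cells, red cells and liver for PPARα and at 3 of 12 for PML/RARA, below the same shares. Peaks do not measure expression.

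The RefSeq promoter table (GRCh38.p14) held 11 promoters for 9 of the 10 genes, each 300 bases from 250 before to 50 after a transcript start. Those of 6 genes are shown. RBM15 and its paralogue RBM15B are given first because a PPARα peak was called at only 1 of the pair. METTL3 and METTL14 follow because their places in the PML/RARA list lay far apart, and WTAP and ALKBH5 because they ranked high in both lists. Letters run 5′ to 3′ on the gene's strand. Capitals mark matches, on either strand, to AGGTCA of nuclear receptors, CCGGAAG of ETS factors, GGGCGG of SP and KLF factors, GCGCATGC of NRF1, CCAAT of NF-Y and the E-box CACGTG, the last added after the RBM15 promoter had been read.
RBM15, chr1:110339127-110339426, plus strand: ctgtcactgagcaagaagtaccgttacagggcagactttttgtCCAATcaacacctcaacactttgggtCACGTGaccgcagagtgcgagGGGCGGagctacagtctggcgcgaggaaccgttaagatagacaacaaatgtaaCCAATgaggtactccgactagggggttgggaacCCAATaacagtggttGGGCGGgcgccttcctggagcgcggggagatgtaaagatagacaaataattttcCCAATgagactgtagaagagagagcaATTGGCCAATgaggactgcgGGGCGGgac
RBM15B, chr3:51391035-51391334, plus strand: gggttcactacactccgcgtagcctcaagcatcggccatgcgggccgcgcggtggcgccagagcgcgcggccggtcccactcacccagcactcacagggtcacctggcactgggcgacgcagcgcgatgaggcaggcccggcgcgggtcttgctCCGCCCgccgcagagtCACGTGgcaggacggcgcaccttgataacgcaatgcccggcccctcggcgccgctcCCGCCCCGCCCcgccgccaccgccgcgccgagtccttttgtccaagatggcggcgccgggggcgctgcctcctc
METTL3, chr14:21511291-21511590, minus strand: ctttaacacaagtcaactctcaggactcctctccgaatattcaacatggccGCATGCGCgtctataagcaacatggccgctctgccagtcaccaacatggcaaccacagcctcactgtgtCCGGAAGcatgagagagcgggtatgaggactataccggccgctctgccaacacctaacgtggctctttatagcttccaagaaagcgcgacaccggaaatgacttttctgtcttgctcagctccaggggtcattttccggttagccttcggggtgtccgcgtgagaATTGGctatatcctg
METTL14, chr4:118685142-118685441, plus strand: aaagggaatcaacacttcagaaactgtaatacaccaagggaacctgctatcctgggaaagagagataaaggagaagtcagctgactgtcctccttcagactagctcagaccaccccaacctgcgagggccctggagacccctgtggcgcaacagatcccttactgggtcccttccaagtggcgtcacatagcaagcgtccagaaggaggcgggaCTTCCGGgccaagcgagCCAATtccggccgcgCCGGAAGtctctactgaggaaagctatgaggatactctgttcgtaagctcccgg
WTAP, first of its promoters, chr6:159726867-159727166, plus strand: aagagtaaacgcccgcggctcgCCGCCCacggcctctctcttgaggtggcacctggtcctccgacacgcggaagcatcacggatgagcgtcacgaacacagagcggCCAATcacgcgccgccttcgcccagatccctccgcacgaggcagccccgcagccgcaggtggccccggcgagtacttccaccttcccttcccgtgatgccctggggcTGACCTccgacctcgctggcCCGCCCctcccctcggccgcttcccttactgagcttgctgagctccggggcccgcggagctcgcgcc
ALKBH5, chr17:18183578-18183877, plus strand: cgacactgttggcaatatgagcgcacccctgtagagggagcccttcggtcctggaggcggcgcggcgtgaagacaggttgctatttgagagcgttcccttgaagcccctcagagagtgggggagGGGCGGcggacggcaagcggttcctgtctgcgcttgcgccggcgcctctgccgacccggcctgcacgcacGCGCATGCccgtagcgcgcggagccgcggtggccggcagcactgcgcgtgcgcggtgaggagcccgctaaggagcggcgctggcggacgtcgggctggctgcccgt

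At the gene ends, 9 of the 10 genes had a PPARα peak and all 10 had a PML/RARA peak. A gene counted as marked when a peak touched the window of 1 kb on either side of an annotated end. Among all protein-coding genes, 32.3% were marked by PPARα, 57.8% by PML/RARA and 31.9% by both. Of the 11551 genes with a PML/RARA end peak, 6370 also had a PPARα end peak. PML/RARA end peaks with a fold within 10% of a member's overlapped PPARα in 24.0% (METTL14) to 81.7% (METTL3) of cases. For the other members this share ran from 59.4% (ZC3H13) to 75.2% (ALKBH5). RBM15B was the member without a PPARα end peak. Without RBM15, which was chosen on that value, PPARα marked 8 of the other 9. With only peaks of −log10 q of at least 5, PPARα marked 8 of 10 members and 23.9% of all protein-coding genes, and with only peaks of fold of at least 5 it marked 8 of 10 and 27.3%. With the PML/RARA list shortened to its 9819 strongest peaks, PML/RARA marked 8 of 10 members and 30.2% of all protein-coding genes. In the wider windows of gene and flanks every member held at least 1 peak of each list, where 53.5% of all protein-coding genes held a PPARα peak and 78.9% a PML/RARA peak. The members' windows had a median length of 69.8 kb, close to the 64.2 kb of all genes. They held a median of 1 PPARα peak and 2.5 PML/RARA peaks, against 1 and 2 over all protein-coding genes.

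The peaks lay at starts. For the 9 members whose strand the promoter table gives, PPARα marked the annotated start of 8 and the annotated finish of 0, and PML/RARA the start of 9 and the finish of 0. Among 15811 protein-coding genes with a strand, PPARα marked the start of 33.2% and the finish of 2.71%, and PML/RARA the start of 57.0% and the finish of 10.8%. VIRMA has no strand in that table, and both of its end peaks lay at its higher-coordinate end, which is also within 1 kb of an end of VIRMA-DT. The gene table gives only gene bounds, so a peak was not placed in an exon, intron or UTR.

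**Figure D1:**
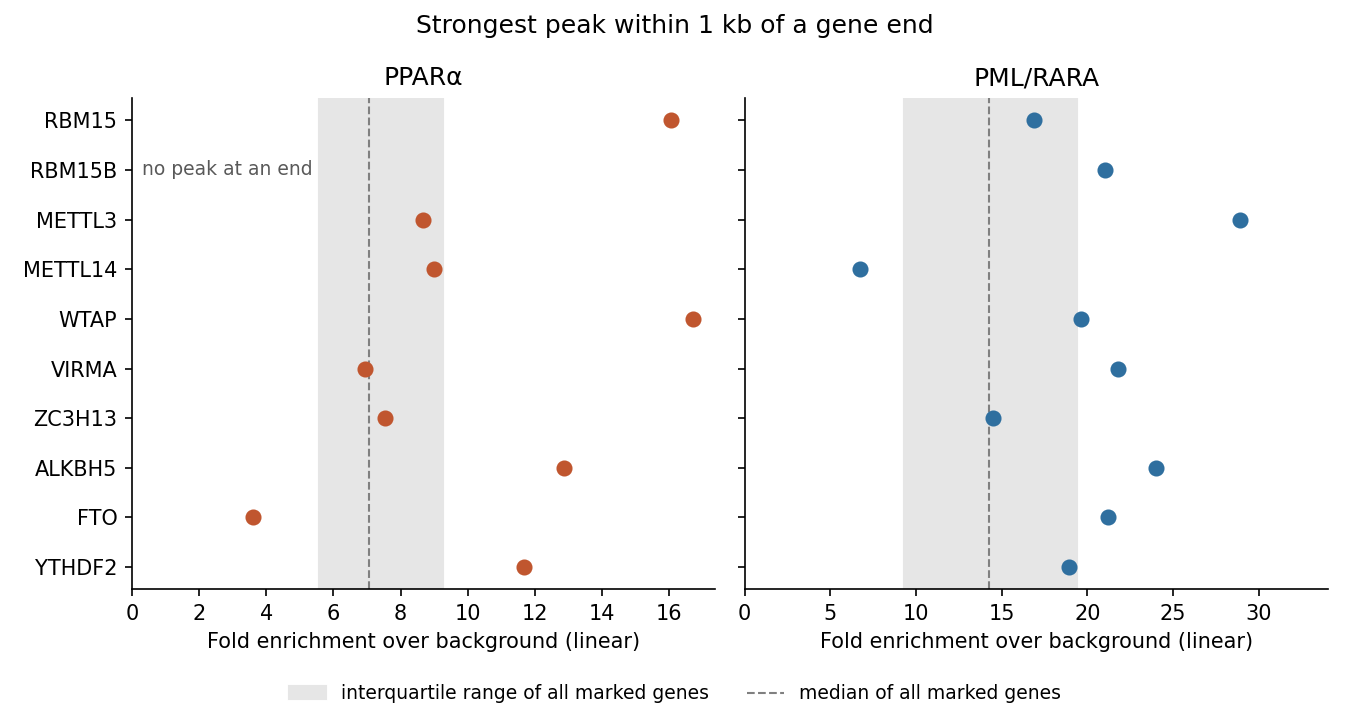
Fold enrichment (x axis, linear, as deposited) of the strongest peak within 1 kb of an end of each m6A gene, for PPARα on the left and PML/RARA on the right. The dashed line is the median and the grey band the interquartile range of all protein-coding genes with such a peak, and RBM15 (16.1) and WTAP (16.7) lie farthest right for PPARα, METTL3 (28.9) for PML/RARA.

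Of the RNA-binding subunits, RBM15 had the highest PPARα −log10 q of all 10 members and RBM15B had no PPARα end peak. RBM15 binds RNA and brings the writer complex to its sites. Its PPARα peak, chr1:110338525-110339426, had a fold enrichment of 16.1, the linear ratio over background that the peak caller reports, with a −log10 q of 97.9. Here q is the caller's p-value adjusted for multiple testing. It was the 7th of 9829 PPARα peaks by −log10 q and the 85th by fold. Among the 6446 genes with a PPARα end peak RBM15 ranked 3rd, with LOC124904276, which shares the peak. The summit lay 264 bases upstream of the annotated start and the peak covered all 300 bases of the promoter printed above, with the summit just beyond its upstream edge. The PML/RARA peak, chr1:110338294-110339471, contained the PPARα peak whole and had a fold of 16.9 with −log10 q 176, the 1472nd of its list. Its summit lay 147 bases upstream of the start. RBM15 thus stood near the top of the PPARα list and in the upper 9.27% of the 11551 genes with a PML/RARA end peak. The same peaks also lay within 1 kb of the start of RBM15-AS1, which runs the other way. That start, at base 110339171, lay between the PPARα summit (110339113) and the PML/RARA summit (110339230). Both summits were nearer to it than to the RBM15 start (110339377).

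RBM15B, which does the same work as RBM15 in the complex, had a PML/RARA peak of fold 21.0 and −log10 q 106 at chr3:51390877-51391295, and no PPARα peak there. The summit lay 147 bases upstream of the start, as at RBM15. Among the 1450 PML/RARA peaks at gene ends with a fold within 10% of this one, 74.1% overlapped a PPARα peak. The PPARα peak in the flank of RBM15B (fold 6.66) lay 6414 bases upstream and overlapped a PML/RARA peak of fold 20.4. Both peaks lay within 1 kb of ends of DOCK3 and of MANF, a gene of the endoplasmic reticulum stress response.

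The catalytic pair differed in the PML/RARA list more than in the PPARα list. METTL3 had a PPARα peak at chr14:21511070-21511466 of fold 8.67 (−log10 q 11.2). METTL14 had one at chr4:118685300-118685624 of fold 8.98 (−log10 q 11.0), so they stood side by side at ranks 2321 and 2359 of 6446 marked genes. For PML/RARA, METTL3 had a fold of 28.9 with a −log10 q of 130, the highest fold of the 10 genes. METTL14 had a fold of 6.75 with a −log10 q of 7.25, the lowest of the 10 by both measures. METTL14 ranked 10405th of 11551 genes and METTL3 1758th. Of the 1068 PML/RARA end peaks with a fold within 10% of that at METTL14, 24.0% overlapped a PPARα peak, against 81.7% of the 454 peaks like that at METTL3. At both genes the PPARα peak lay wholly inside the PML/RARA peak, with its summit just inside the gene (20 bases at METTL3, 29 at METTL14) and the PML/RARA summit upstream (103 and 84 bases).

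Among the scaffold subunits WTAP, VIRMA and ZC3H13, WTAP had the highest −log10 q in both lists and the highest PPARα fold, while VIRMA had the highest PML/RARA fold. WTAP, which holds the methyltransferase pair in nuclear speckles, had a PPARα peak of fold 16.7 and −log10 q 46.1 at chr6:159726904-159727466, rank 143 of 6446. Its PML/RARA peak, chr6:159726904-159727855, began at the same base and had a fold of 19.6 with a −log10 q of 119. Both began 211 bases inside the outermost annotated start and covered the start of the printed promoter. VIRMA, the largest subunit, had a PPARα fold of 6.93 (−log10 q 7.47) and a PML/RARA fold of 21.8 (57.7). ZC3H13, known from mouse stem cells to keep the complex in the nucleus, had a PPARα peak at chr13:46052425-46053085 of fold 7.53 (−log10 q 8.69) and a PML/RARA fold of 14.5 (26.4). These stood near the middle of the marked genes for PPARα, at 54.2% for VIRMA and 47.4% for ZC3H13 counted from the strongest.

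The demethylases lay at opposite ends of the PPARα list. ALKBH5 had a PPARα peak of fold 12.9 and −log10 q 37.3 at chr17:18183044-18183843 and a PML/RARA peak of fold 24.0 and −log10 q 373 at chr17:18183272-18184316. That was the highest PML/RARA −log10 q of the 10 genes, rank 172 of 11551, and its PPARα rank was 253 of 6446. FTO, the demethylase first known from obesity genetics, had a PPARα fold of 3.59 with a −log10 q of 1.55, rank 6406 of 6446, near the list's lowest −log10 q of 1.32. Its PML/RARA peak, chr16:53703807-53704258, was of fold 21.2 and −log10 q 56.7, rank 4713 of 11551. FTO shares the region with RPGRIP1L, a cilium gene that starts on the other strand. FTO was thus marked by both antibodies, but weakly in 1 list. The reader gene YTHDF2 had a PPARα peak at chr1:28736448-28736883 of fold 11.7 (−log10 q 19.5, rank 1042) and a PML/RARA peak at chr1:28736394-28737161 of fold 18.9 (−log10 q 120, rank 2005).

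**Figure D2:**
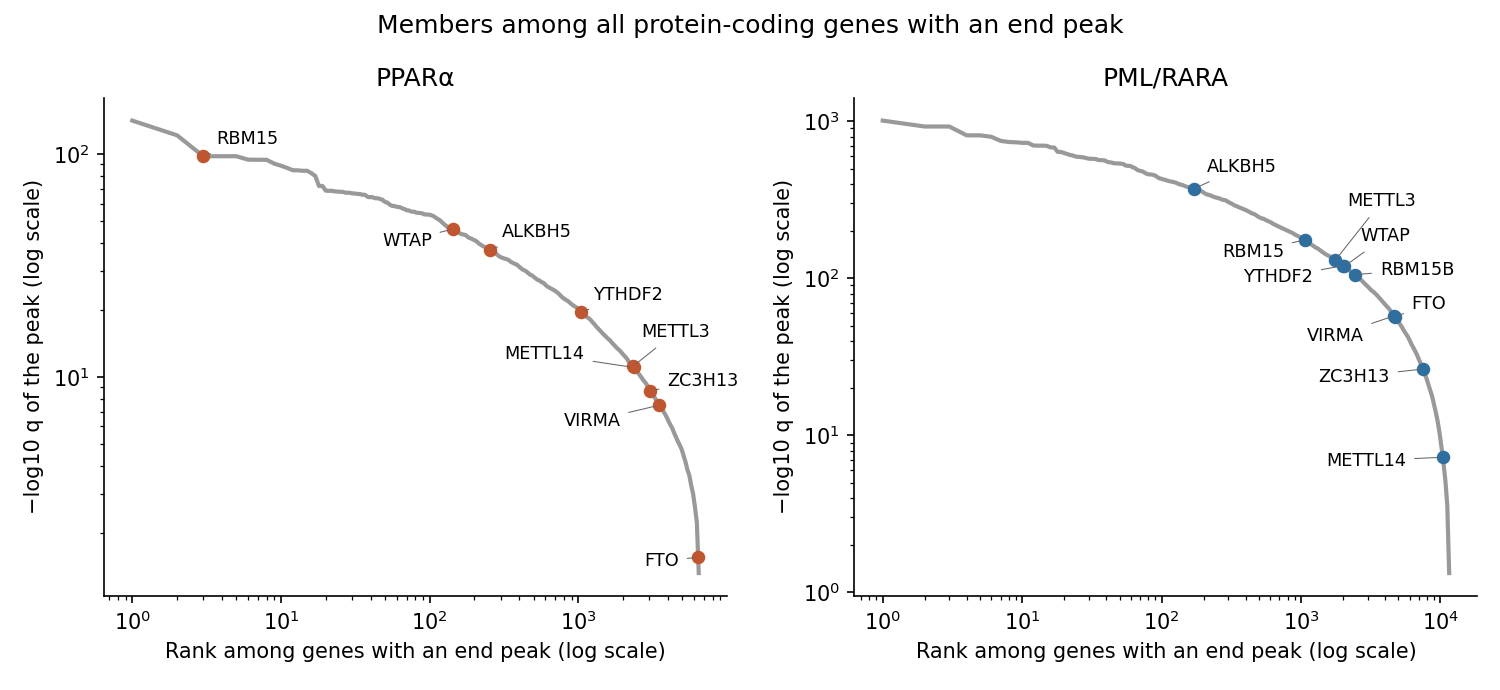
The −log10 q of the strongest end peak (y axis, log scale) against the gene's rank by that value (x axis, log scale) for PPARα on the left and PML/RARA on the right; the grey line is all protein-coding genes with an end peak and the points are the m6A genes. RBM15 is 3rd of 6446 for PPARα and FTO 6406th, and for PML/RARA the genes run from ALKBH5 at 172 to METTL14 at 10405 of 11551.

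Over the members with a peak, the median fold at gene ends was 8.98 for PPARα (9 genes) against 7.06 over all marked genes, and 20.3 for PML/RARA (10 genes) against 14.2. The PPARα median includes RBM15 (16.1), on whose peak the set was chosen. Without RBM15 the middle values were 8.67 (METTL3) and 8.98 (METTL14). The members ranged from 3.59 to 16.7 for PPARα and from 6.75 to 28.9 for PML/RARA. Fold has its own scale in either list, so genes were set side by side across the lists only by rank.

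Summits of the 2 antibodies were close at the members but did not coincide. Over the 9 end peaks of PPARα the distance to the PML/RARA summit had a median of 136 bases and a range of 79 (ALKBH5) to 258 (YTHDF2), and it was within 200 bases at 7 of 9. Over all 8845 PPARα peaks that overlapped PML/RARA the median was 172 bases and 5233 lay within 200. PPARα peaks at the ends had a median width of 526 bases, against 503 in the whole list. PML/RARA peaks at the ends had a median width of 552.5 bases, against 241 in the whole list. The whole list also holds peaks away from gene ends. The PML/RARA peaks in the windows but not at a member's own end had a median of 165 bases. Some of these lay at ends of other genes. Widths at the ends of all genes were not computed, so whether the difference from the whole list is a trait of the members is not known. The PPARα summit lay farther upstream than the PML/RARA summit at RBM15, ALKBH5, FTO and YTHDF2, and nearer to or deeper in the gene at METTL3, METTL14, WTAP and ZC3H13.

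**Figure D3:**
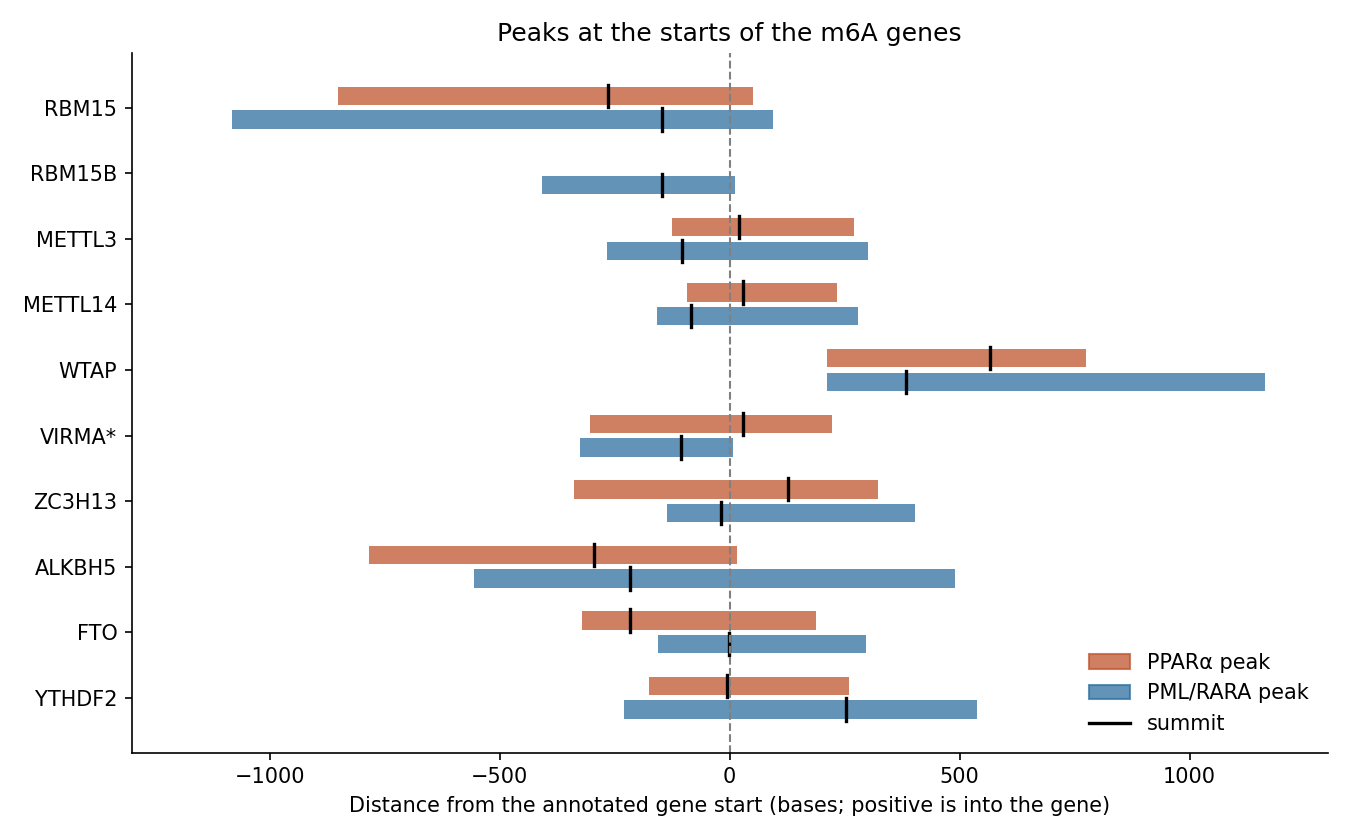
Peaks at the starts of the m6A genes, PPARα above and PML/RARA below in each row, by distance in bases from the outermost annotated start (x axis, positive into the gene), with black ticks for summits. VIRMA, marked with an asterisk, is drawn from its higher-coordinate end. RBM15 has the widest pair (902 and 1178 bases), RBM15B has no PPARα bar, and both WTAP bars begin 211 bases inside the gene.

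Away from the members' own ends there were 3 PPARα and 15 PML/RARA peaks, some of them at ends of other genes. Of the 12 PPARα peaks in the windows, 11 overlapped a PML/RARA peak by at least 1 base, which is near the 90.1% of the whole PPARα list. The exception lay 19675 bases upstream of RBM15, in the body of RBM15-AS1, with a fold of 5.62. Its −log10 q was 4.59. It was also the PPARα peak closest to the 20 kb limit from inside, 19586 bases from the gene. The PPARα peak closest to the limit from outside lay 20540 bases from METTL3 (fold 8.12). For PML/RARA the peak closest to it from inside lay 15381 bases from ALKBH5 (fold 16.1) and from outside 20852 bases from METTL3 (fold 32.0). Downstream of WTAP a PPARα peak of fold 13.9 overlapped a PML/RARA peak of fold 20.2 at ends of ACAT2, which encodes a cytosolic acetoacetyl-CoA thiolase, and SOD2, the mitochondrial superoxide dismutase gene.

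The PML/RARA peaks away from the members' own ends were narrower and weaker as a group. Their median width was 165 bases against 552.5 at the members' ends, and their median fold 7.27 against 20.3. Those at ends of other genes included wide and strong ones, at DOCK3 and MANF (540 bases, fold 20.4) and at ACAT2 and SOD2 (727 bases, fold 20.2). Inside the members, PML/RARA peaks away from the ends lay in FTO, at 346636, 352535 and 361522 bases from its start with folds of 10.9, 5.44 and 4.55, and in YTHDF2, at 9839, 12631 and 17713 bases with folds of 4.48, 7.09 and 3.39. No PPARα peak was called inside either gene away from its start. ALKBH5 had PML/RARA peaks of fold 16.8 and 16.1 downstream, the second of them at an end of LLGL1, a cell polarity gene. Near RBM15B the folds were 20.4 upstream, at ends of DOCK3 and MANF, and 7.53 downstream within DCAF1, a ubiquitin ligase receptor gene. Others lay upstream of WTAP (7.27 and 4.58) and downstream of FTO (5.61). Another lay 12498 bases beyond VIRMA at an end of RAD54B, a DNA repair helicase gene (7.85).

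Several members' starts lay near a start on the opposite strand. An opposite-strand start lay within 1 kb of the annotated start at 5 of 9 members, and at 24.6% of all protein-coding genes with a strand. They were RBM15 (with RBM15-AS1), METTL14 (METTL14-DT), WTAP (SOD2), ZC3H13 (CPB2-AS1) and FTO (RPGRIP1L). SOD2 has 4 annotated starts, of which 2 lie 257 and 691 bases inside WTAP, and another lies at the peak downstream of WTAP described above. PPARα marked the start of all 5, and of RBM15B, METTL3, ALKBH5 and YTHDF2, which lack such a neighbour, it marked 3. Among all protein-coding genes it marked 57.4% of starts with an opposite-strand neighbour and 25.3% of those without. A peak near the starts of both genes cannot be given to 1 of them.

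In the 11 member promoters, of which 6 are printed above, the nuclear receptor core element AGGTCA was found at 1 of 9 members, WTAP, and in 11.9% of the 22155 promoters of protein-coding genes. PPAR and RAR bind with RXR to its direct repeats spaced by 1, 2 or 5 bases. Exact copies of these repeats were found in 0 of the 11 member promoters, and in 5, 1 and 1 of the 22155. No mismatch was allowed, and so rare a pattern could hardly be met in 11 promoters. Its absence therefore does not show that the members lack such elements, and looser forms were not sought. GGGCGG was in the promoters of 5 of 9 members and in 56.3% of all promoters, CCAAT at 6 of 9 and in 34.6%, and CCGGAAG at 3 of 9 (METTL3, METTL14 and ZC3H13) and in 12.8%. GCGCATGC was at METTL3 and ALKBH5, and in 3.74% of all promoters, and TGACGTCA, the CRE, was at none, and in 2.26%. Members with a second promoter had more sequence searched. The windows hold only part of most peaks, and a match is not a bound site. The member promoters had a median GC content of 60.0%, against 62.3% for all promoters, and a median of 22 CpG dinucleotides, against 21.

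Other genes of the m6A pathway were read against the same shares of 32.3% and 57.8%. Of 24 such genes, including SPEN, the large relative of the RBM15 proteins, 14 carried PPARα at an end and 23 carried PML/RARA there. All 14 belonged to the 23. HNRNPA2B1, a nuclear reader, had the highest PPARα −log10 q of them (fold 10.4, −log10 q 36.6), followed by PRRC2A, a reader known from mouse (12.3, 30.9), HNRNPC (10.2, 27.3), whose RNA access m6A alters, and TRMT112, the cofactor of METTL5 (10.2, 25.6). The cytosolic reader YTHDF3 had a fold of 8.48 and the U6 RNA and MAT2A methylase METTL16 a fold of 8.90. The PPARα folds were 5.55 at IGF2BP3 and 5.15 at IGF2BP1, readers that stabilise RNA, 7.21 at MAT2A, the S-adenosylmethionine synthetase gene, and 7.35 at CBLL1, the E3-ligase-like subunit of the writer. They were 5.57 at PCIF1, the cap methylase, 6.29 at YTHDC1, the nuclear reader, 5.62 at YTHDC2, an RNA helicase, and 4.72 at METTL4. SPEN (PML/RARA fold 18.7, −log10 q 263), the cytosolic reader gene YTHDF1 (20.4, 90.7), ELAVL1, which encodes an RNA-stabilising protein (11.9, 58.6), and AHCY, which clears the product of methylation (17.8, 42.9), had PML/RARA end peaks without PPARα. MAT2B, the regulatory subunit gene of the synthetase, had neither, and was named after its values were seen. The median PPARα fold of the 14 was 7.28 and the median PML/RARA fold of the 23 was 15.0, against 7.06 and 14.2 over all marked genes.

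**Figure D4:**
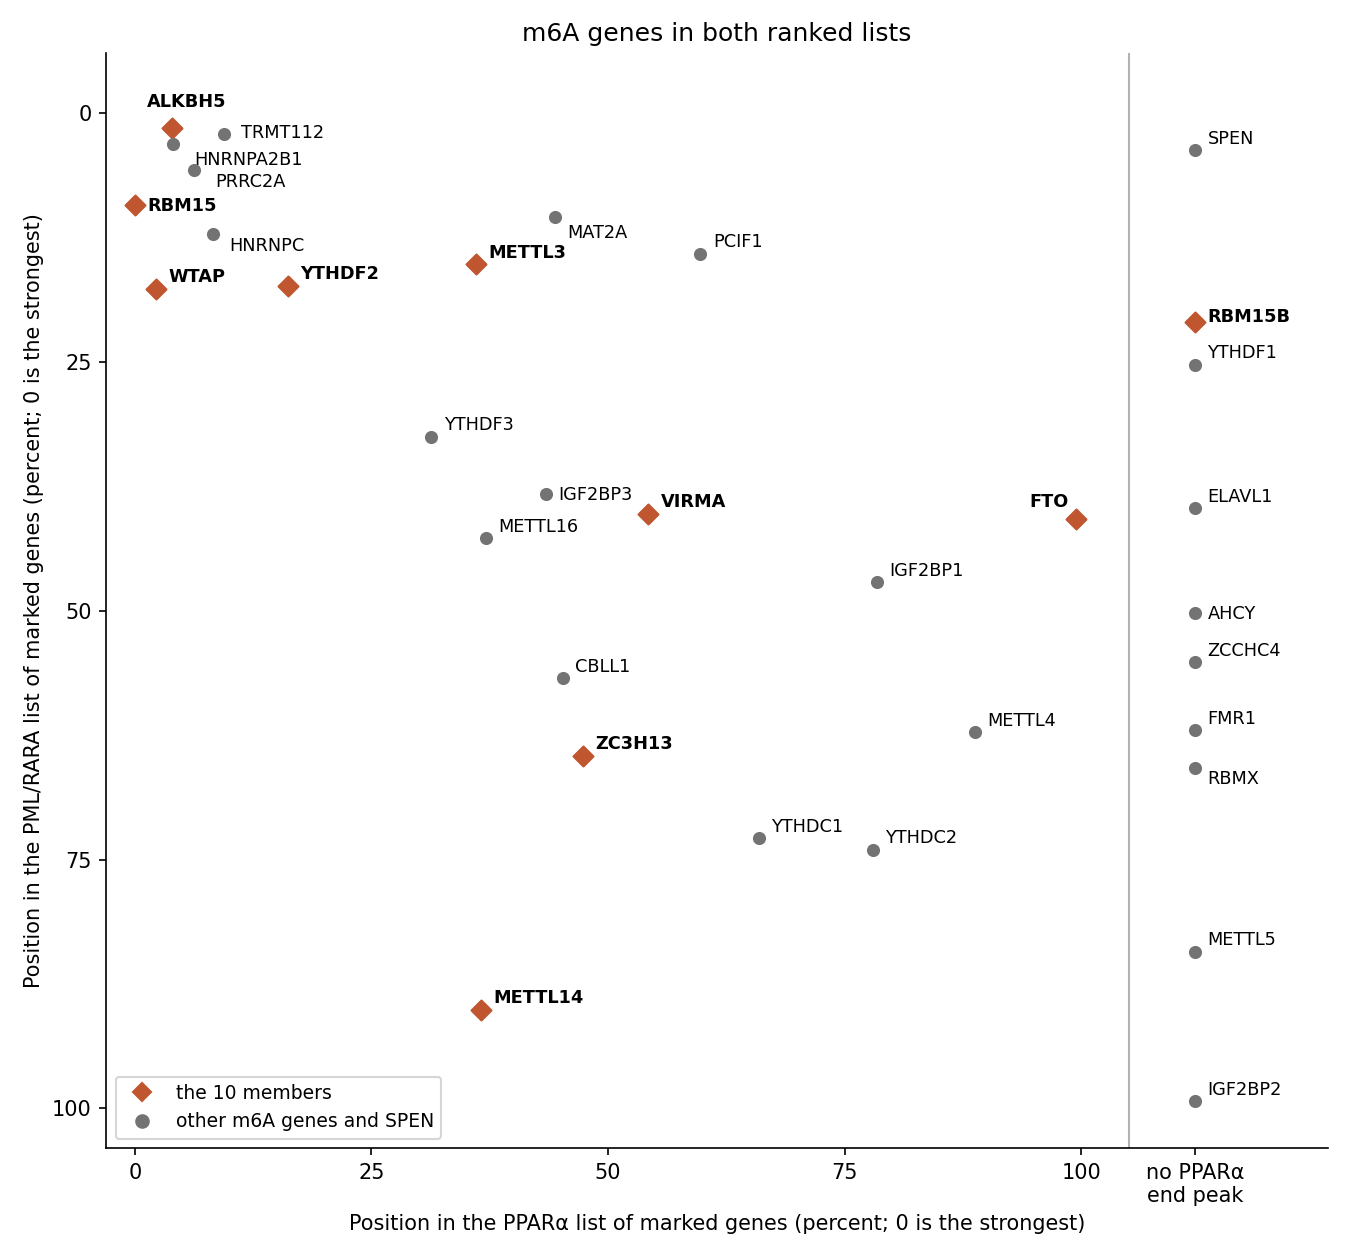
Position of each m6A gene in the ranked lists of marked genes, in percent from the strongest, for PPARα (x axis) and PML/RARA (y axis, strongest at the top), with the 10 members as diamonds and other m6A genes and SPEN as circles. Genes without a PPARα end peak stand right of the line, and MAT2B, with neither, is not drawn. RBM15, WTAP and ALKBH5 lie at the upper left, METTL14 at 36.6% and 90.1%, and FTO at 99.4% and 40.8%. Of the circles, HNRNPA2B1 (4.08% and 3.15%), PRRC2A (6.28% and 5.78%), TRMT112 (9.46% and 2.15%) and HNRNPC (8.25% and 12.2%) also lie at the upper left.

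Genes whose end peaks ranked most like those of RBM15 in both lists, by the sum of the differences in rank over 2 lists, were LOC124904276 through the shared peak, then APBA3 and MRPL54, which share a peak of PPARα fold 19.7 and PML/RARA fold 16.7, PPP2R1A (15.7, 19.7), the scaffold subunit gene of a phosphatase, and RALY (15.4, 16.6), an RNA-binding protein gene. No m6A gene was among them.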

How the data were processed

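CUT&Tag peak lists of NB4 cells were used as deposited, 1 for PPARα and 1 for PML/RARA, with coordinates on hg38 per the submitters' processing notes. Those notes list bedtools, SAMtools, MACS 1.4.2 and Bowtie2 2.2.9 but no roles or settings, and the layout is that of later MACS releases. No source used here says whether IgG served as control. Per peak the authors give a fold, which is a linear ratio over background, a −log10 q and a summit. The smallest −log10 q was 1.32 (PPARα) and 1.30 (PML/RARA). Depth is unknown, so no interval is given.

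Peaks on chromosomes 1 to 22 and X were used, leaving aside 33 PML/RARA and 10 PPARα peaks. Gene positions were those of RefSeq GRCh38.p14, and strand and sequence from its promoter table. Overlaps, ranks within each list and motif matches were computed with Python 3.11.15 and pandas 2.3.3, and the overlap routine was tested on simulated data. No test was run, since each antibody has 1 library. All 10 members were named, with other m6A genes that had a PPARα end peak, up to 4 with PML/RARA only, and the 5 genes most like RBM15. The members and lists were chosen with earlier results of these data known. Alternatives were stricter lists (at least 5 in fold or in −log10 q), the 9819 strongest PML/RARA peaks alone, other windows and other overlap rules.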

Additional observations from a re-analysis of the deposited data

How the results depend on the processing

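Of 40 recomputed counts, 38 stayed within 1.5 times the reported value. The 2 others concern the number of PML/RARA peaks in the members' windows, which was 25 and became 16 with gene bodies only and 12 with the PML/RARA list shortened to 9819 peaks, both by construction. Among the 38, counts that use PPARα peaks alone could not change when only the PML/RARA list was shortened. Wider gene-end windows could only raise counts that were already 9 and 10 of 10 members, so these could not leave the range. The 38 are thus not all checks that could have come out otherwise. With −log10 q or fold of at least 5 PPARα marked 8 of 10 genes, FTO being lost beside RBM15B, against 23.9% (−log10 q) and 27.3% (fold) of all protein-coding genes. In the shortened list METTL14 and ZC3H13 lost their PML/RARA end peaks, which left 8 of 10, against 30.2% of all protein-coding genes. Requiring summits within 200 bases left 8 of the 12 PPARα peaks paired with PML/RARA, against 11 by shared bases. The annotated start could be tried for 9 genes, as VIRMA has no strand in the promoter table. No paired analysis was possible because each antibody has 1 library and no result comes from a test. Unknown depth and the unequal lengths of the lists limit what a missing peak means, as at RBM15B.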

Other observations

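The RBM15 promoter held 6 matches to CCAAT, the NF-Y letters, counted on both strands, 2 of them back to back downstream of the start. Of 22155 promoters of protein-coding genes, 24 (0.108%) held as many. The E-box CACGTG was found at 2 of the 9 members with a promoter, RBM15 and RBM15B, and in 8.34% of all promoters. Both patterns were picked after the sequences had been read, so they are given as counts only, and whether either bears on the peaks was not tested.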
